A study of Mus musculus with 8 samples.

Results

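The 4 hippocampal libraries of the 8-week-old mice were compared by the replicate number in their labels, replicate 2 against replicate 1, with the prenatal treatment held as a block. They are 4 of the 8 libraries of the series. One library of each number came from offspring of dams given dexamethasone, a synthetic glucocorticoid (labelled IUGR), and the other from offspring of saline-injected dams (labelled NS), so the comparison crosses the treatment. All mice are labelled male, wildtype and C57BL/6J. The dams of the IUGR group received 1 mg/kg dexamethasone each day by intraperitoneal injection, for 5 days from 14.5 days post coitum. The offspring were sampled at postnatal day 3 or at week 8, with 2 libraries in each of the 4 groups. The labels do not say whether a group's libraries came from separate animals, so p-values cover the spread of these libraries alone, and that spread may be technical. Per the labels, every library was made from Trizol-extracted total RNA, by depletion of ribosomal RNA and random-primed reverse transcription. The labels name no difference in preparation between the replicate numbers. Many RNAs without a poly(A) tail, which depletion of ribosomal RNA keeps, were at or near 0 in both week 8 libraries numbered 2, as given below. Malat1 and the ribosomal RNA precursor Rn45s, also without such a tail, were not near 0 there. Whether those libraries were made or processed in another way was not tested, and cannot be told apart from the replicate number.

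Most messenger RNAs end in a poly(A) tail, and a library selected through that tail loses RNAs that lack one. RNAs without a tail include the RNA subunits of the nucleases RNase P and RNase MRP, which RNA polymerase III makes, and the scaRNAs and snoRNAs, which guide the chemical modification of other RNAs. The messenger RNAs of replication-dependent histones also end without a tail, at a short stem-loop. Circular RNAs, formed by back-splicing within long genes of neurons, have no end at all. Depletion of ribosomal RNA keeps all of these, together with unspliced nuclear RNA. Base composition and length of a transcript are further properties on which library preparations are known to differ.

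The sequences below show the annotated 3′ ends of 3 RNAs without a tail that were abundant in one replicate number, with the final 20 bases in capitals. In the GENCODE M21 annotation of GRCm38 (the build called mm10), Rpph1 spans chr14:50807449-50807767, Rmrp chr4:43492788-43493058 and Scarna13 chr12:105031075-105031349, each on the minus strand and without an intron.
Rpph1: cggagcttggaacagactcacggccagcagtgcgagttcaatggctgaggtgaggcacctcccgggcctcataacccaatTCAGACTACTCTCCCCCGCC
Rmrp: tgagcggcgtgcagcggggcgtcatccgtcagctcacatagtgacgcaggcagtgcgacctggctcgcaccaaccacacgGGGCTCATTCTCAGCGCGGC
Scarna13: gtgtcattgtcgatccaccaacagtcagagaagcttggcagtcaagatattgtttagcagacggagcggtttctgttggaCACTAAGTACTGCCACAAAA
The next set shows the stem-loop of 4 replication-dependent histone messages, with the letters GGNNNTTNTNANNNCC in capitals between 6 bases on each side.
Hist1h4h: accaaaGGCCCTTTTCAGGGCCgcccac
Hist1h4f: ctcaaaGGCCCTTTTCAGGGCCacccac
Hist1h2bb: cccaaaGGCTCTTTTAAGAGCCacccac
Hist1h4b: acaaaaGGTCCTTTTCAGGACCactcac
The next 2 are histone variant genes whose messages carry a poly(A) tail, with the polyadenylation signal near their annotated end in capitals. Hist1h4h, shown above, also has such a signal in its last 50 bases, so the signal alone does not part the 2 sets.
H2afz: ctgcttactaATTAAAcagtgcatct
H3f3b: aggccttacaAATAAActagtaagtt
The stem-loop letters, searched on the transcript strand in the last 200 bases, were present in 26 of 68 replication-dependent histone genes (38.2%) and in 52 of 23972 other genes (0.217%). The search used these fixed letters and a single annotated transcript per gene. A gene without the letters may therefore still have a stem-loop. The signals AATAAA or ATTAAA lay in the last 50 bases of 17 of the 68 histone genes (25%) and of 66.7% of the other genes.

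In the fit with treatment as a block, 15143 of 24421 genes passed the count filter at week 8. An adjusted p under 0.05 (edgeR's quasi-likelihood test with Benjamini-Hochberg adjustment) was reached by 3154 genes that were lower in replicate 2 (20.8% of those tested) and by 3200 that were higher (21.1%). The change was at least 1 on the log2 scale in 1960 of the lower and 1830 of the higher genes. Of the 6354 called genes (42% of those tested), 6353 had the same sign within the NS pair and within the IUGR pair. Over all 15143 tested genes 12495 had. A call in this fit largely requires that agreement, so the agreement of called genes is no separate support. The same comparison at postnatal day 3 called 4 of 15435 genes (0.0259%), which were the 4 Y-linked genes of the sex check: both postnatal day 3 libraries numbered 2 held Xist at 283 and 285 CPM although labelled male. The chi-square of the counts per degree of freedom was 35.6 between the week 8 libraries numbered 1 and 32.5 between those numbered 2. It lay between 207 and 275 for pairs of unlike number, and between 13.7 and 19.6 for all pairs at postnatal day 3. Total counts at week 8 ranged from 13030277 to 18993050 and do not order the libraries by number.

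**Figure D1:**
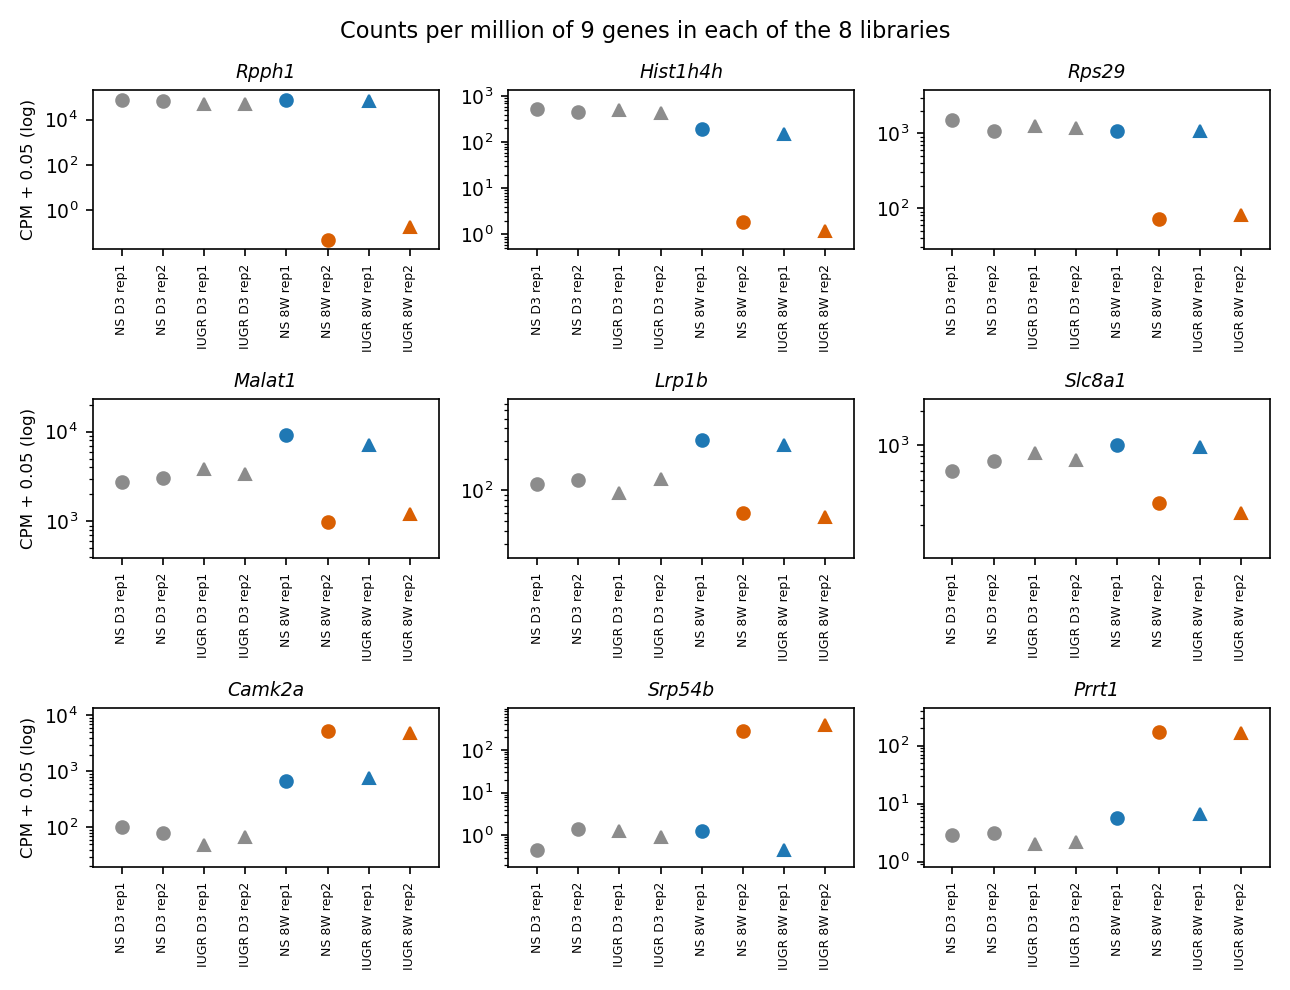
CPM plus 0.05 (log axis) of 9 genes in each of the 8 libraries: grey points are postnatal day 3, blue are week 8 replicate 1 and orange week 8 replicate 2, circles NS and triangles IUGR. In each panel the pair of orange points stands apart from the pair of blue points; for Rpph1, Rps29 and Srp54b the blue points lie near the grey ones.

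The listed structural RNAs without a tail were at or near 0 in replicate 2, and Rpph1 and Rmrp among them were abundant in replicate 1. Rn45s, the precursor of ribosomal RNA and not on that list, did not follow. It held 0.334% and 0.275% of the counts in replicate 1 of NS and IUGR, and 0.0549% and 0.978% in replicate 2. Rpph1, the RNA subunit of RNase P, was at 76921 CPM in NS and 64901 CPM in IUGR in replicate 1, where CPM is the count scaled to the total count of its library. In replicate 2 it had 0 counts in NS and 2 counts in IUGR (0.137 CPM). The 4 libraries of postnatal day 3 ranged from 49120 to 74360 CPM. Rmrp, the RNA of RNase MRP, was at 12202 and 7741 CPM in replicate 1 and had 0 counts in both replicate 2 libraries, which with 3 counts as the limit over both makes it at least 110037-fold lower. Terc, the telomerase RNA, had 100 counts over the replicate 1 libraries and 2 over the replicate 2 libraries, a ratio of 60.4 (95% exact interval 16.3 to 505, counting error only). Vaultrc5, an RNA of the vault particle, had 41 and 1 counts. The 8 genes of this list in the table held 8.91% and 7.26% of all counts in replicate 1 of NS and IUGR, and 5.27e-06% and 2.74e-05% in replicate 2. The 4 members without a count at week 8 add nothing to these sums, and the 4 that were tested had passed the filter only through replicate 1.

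Small RNAs of the Cajal body and nucleolus showed the same split. Scarna10, which guides modification of a spliceosomal RNA, was at 1698 and 1496 CPM in replicate 1 of NS and IUGR and had 0 counts in replicate 2, at least 17808-fold lower. Scarna2 was at 204 and 158 CPM against 0 counts, and Scarna13 at 796 and 707 CPM against 0.105 and 0.548 CPM. Snora74a, a snoRNA, was at 230 and 169 CPM against 0.158 and 0.206 CPM. None of these 4 genes overlapped between the replicate numbers, as was so for 74.8% of all tested genes. The 119 snoRNA and scaRNA genes together held 0.313% and 0.267% of the counts in replicate 1, 0.00319% and 0.00335% in replicate 2, and between 0.226% and 0.276% at postnatal day 3. Of the 28 that passed the filter, 14 passed only through replicate 1 and 3 only through replicate 2; 16 were lower and 1, Snord91a, was higher, at 3.79 and 3.84 CPM against 1.61 and 0.406 CPM. The spliceosomal RNAs Rnu11 and Rnu12 of the minor spliceosome had 198 and 54 counts over the replicate 1 libraries and 0 in replicate 2.

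The split was less uniform among genes with a microRNA symbol, most of which lie inside other genes. Of 1180 such genes, 659 had no count at week 8 and 54 passed the filter. Of the 54, 24 passed only through replicate 1 and 4 only through replicate 2. In replicate 2, 28 were lower (51.9%) and 10 higher (18.5%). Over all tested genes the shares were 20.8% and 21.1%, so the share that was higher was not above that of all genes. Mir29a (88 bases at chr6:31062660-31062747, minus strand) was at 3.76 and 5.41 CPM in replicate 1 and Mirlet7c-1 (94 bases at chr16:77599657-77599750, plus strand) at 2.69 and 2.3 CPM, both with 0 counts in replicate 2. Their leading mature arms are given from RefSeq (GRCm38.p6) to identify them, with the seed, bases 2 to 8, in capitals; the counts are of the whole hairpin gene, and their seeds differ.
mmu-miR-29a-3p: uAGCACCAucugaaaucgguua
mmu-let-7c-5p: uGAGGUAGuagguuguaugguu
Other genes in this class were higher. Mir124a-1hg, the long host transcript of a neuronal microRNA, was at 171 and 111 CPM in replicate 2 of NS and IUGR against 31.8 and 32.2 CPM in replicate 1. Mir684-1, 98.2% of whose sequence recurs in other genes, was at 42.8 and 42.5 CPM against 0.153 and 0.0676 CPM.

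**Figure D2:**
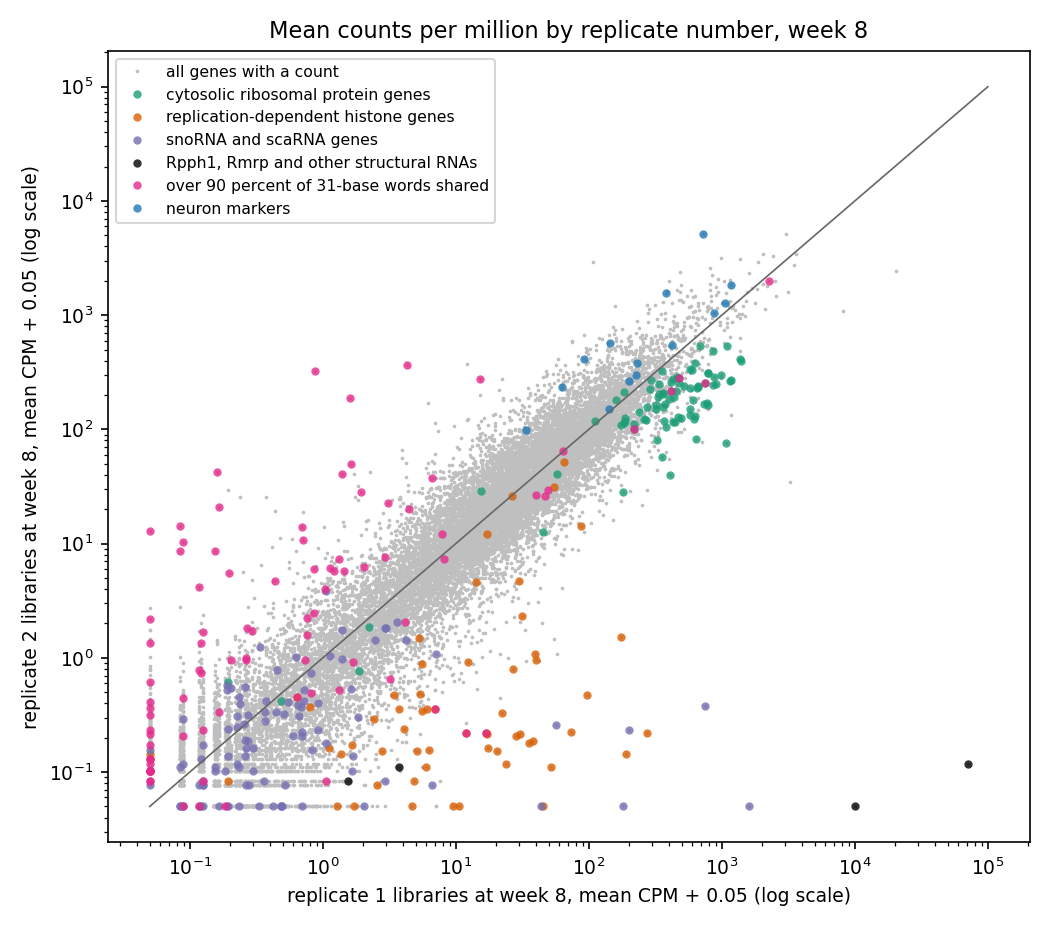
Mean CPM plus 0.05 of the replicate 1 (x) and replicate 2 (y) libraries at week 8, both on log axes, with the line of equality; grey points are all genes with a count and colours mark 6 gene classes. Structural RNAs, histone messages and part of the snoRNA genes lie at the lower edge, ribosomal protein genes below the line, and many genes whose 31-base words recur in other genes above it.

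Replication-dependent histone messages were lower in replicate 2 with few exceptions. The 68 genes were taken by symbol. Most encode the core and linker histones made in S phase, and Hist3h2bb-ps is named as a pseudogene. The 68 together held 0.184% and 0.159% of the counts in replicate 1 of NS and IUGR and 0.0156% and 0.0167% in replicate 2. At postnatal day 3 they held 0.628% to 0.757%. Of the 59 with a count at week 8, both replicate 1 libraries lay above both replicate 2 libraries in 54, where 74.8% of all tested genes separated in either direction. Hist1h4h, a histone H4 gene at chr13:23531050-23531519, was at 191 and 155 CPM in replicate 1 and 1.79 and 1.17 CPM in replicate 2, a log2 change of -6.88 ± 0.26 (SE; adjusted p = 6.12e-07, edgeR). Hist1h4d and Hist1h4c were at 197 and 296 CPM in NS replicate 1 and at most 0.343 CPM in replicate 2. In the fit 49 of 53 tested members were lower and none higher, with 37 that had passed only through replicate 1. Among tested members with the stem-loop letters 20 of 21 were lower, and among those without them 29 of 32.

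The histone genes that kept their level in replicate 2 were few, and are named here after their values were seen. Hist1h2bc was at 70.8, 44.8, 58.3 and 59.2 CPM (NS replicates 1 and 2, then IUGR replicates 1 and 2). Hist3h2ba was at 24.8, 26.7, 27.6 and 25.8 CPM in the same order, and Hist2h2be at 17.7, 11.7, 16.4 and 12.7 CPM; none of these passed the test, nor did Hist1h2ah, which was under 1 CPM in each library. The called members with the smallest falls were Hist3h2a (-0.83 ± 0.19, adjusted p = 0.00733, edgeR), Hist1h2bg (-1.73), Hist2h3b (-1.88) and Hist1h1c (-2.64 ± 0.20, adjusted p = 2.84e-05, edgeR). Of these 8 genes, Hist2h2be, Hist3h2ba, Hist3h2a and Hist1h1c have a polyadenylation signal near the annotated end, and Hist1h2bc, Hist1h2ah, Hist1h2bg and Hist2h3b do not. The 17 members with a signal together held 0.0586% and 0.0505% of the counts in replicate 1 and 0.00975% and 0.00908% in replicate 2. The 51 without one held 0.126% and 0.109% against 0.00584% and 0.00765%. The 11 histone variant genes whose messages are polyadenylated had a median change of 0.26, with 0 lower and 3 higher. H3f3a, H3f3b, H2afz and H1f0, the most abundant of them, did not pass the test; H2afz was at 161, 106, 148 and 125 CPM. H1fx, a linker histone variant with 71.3% GC, was 3.60 ± 0.23 higher (adjusted p = 1.25e-05, edgeR).

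**Figure D3:**
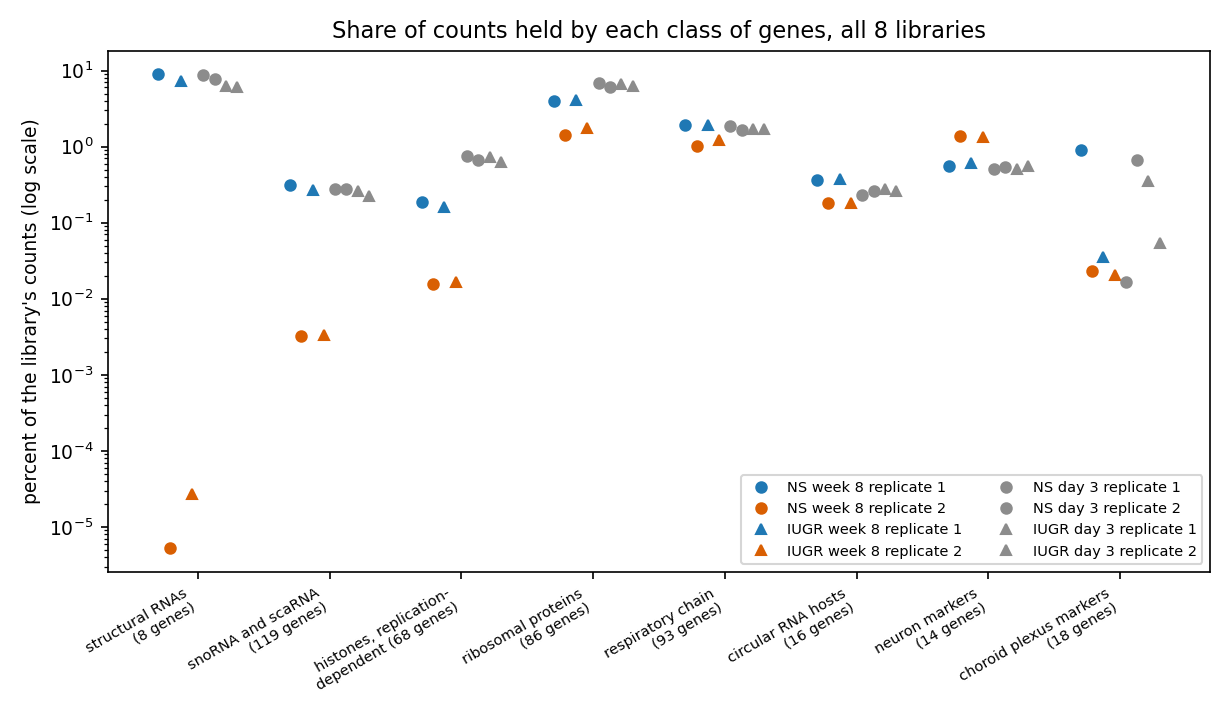
Percent of each library's counts (log axis) held by 8 classes of genes, over every member in the table whether tested or not; colours and symbols are as in the panels of single genes. Week 8 replicate 2 (orange) lies below week 8 replicate 1 (blue) for the first 6 classes and above it for neuron markers, while for choroid plexus markers NS replicate 1 is the one week 8 library that is high and the day 3 libraries spread widely.

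Many short messages with a tail were lower as well. The cytosolic ribosomal protein genes, which encode the proteins of the cytoplasmic ribosome, held 3.99% and 4.05% of the counts in replicate 1 and 1.42% and 1.75% in replicate 2. Of 81 tested, 69 were lower and 1 was higher, with a median log2 change of -1.159 where all tested genes had -0.03, and none had passed the filter through 1 replicate number alone. Rps29, a 390-base transcript of the small subunit, was at 1075 and 1082 CPM in replicate 1 and 71.4 and 80.6 CPM in replicate 2 (-3.85 ± 0.22, adjusted p = 5.64e-06, edgeR). Rpl41, of 449 bases, was at 1112 and 1211 CPM against 249 and 282 CPM. Rpl13a, the most abundant member, was at 1376 and 1382 CPM against 372 and 458 CPM. At the other end, Rpl28, Rps26 and Rpl29 had changes from 0.07 to 0.17 that did not pass the test, and Rps4l was higher by 0.88 ± 0.21. Reads of these genes are shared with many processed pseudogenes, and their counts are uncertain for that reason.

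Genes of the respiratory chain and of the mitochondrial ribosome followed in smaller steps. Of 89 tested nuclear respiratory chain genes, 50 were lower and 4 higher (median -0.72). Cox7c, a subunit of cytochrome c oxidase with a 449-base transcript, was at 660 and 659 CPM in replicate 1 and 121 and 172 CPM in replicate 2. Atp5b and Atp5a1, subunits of the ATP synthase, had changes of -0.22 ± 0.21 and -0.15 ± 0.20 that did not pass the test. Cox8a, another subunit of cytochrome c oxidase with a transcript of 545 bases, did not pass it either (-0.24 ± 0.20) and overlapped between the numbers. Of 77 mitochondrial ribosomal protein genes, 24 were lower and 7 higher (median -0.35), and of 38 proteasome subunit genes, 15 were lower and 3 higher (median -0.50). In protein-coding genes under 1000 bases that belong to neither the histones nor the cytosolic ribosomal proteins, 309 of 737 were lower and 49 higher, with a median of -0.59.

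By the length column of the count table, the change was lowest at both ends. The median log2 change over tested genes was -2.61 under 300 bases (88 genes), -1.99 from 300 to under 500 bases (121 genes) and -0.61 from 500 to under 1000 bases (891 genes). It was -0.05 from 1000 to under 2000 bases, 0.11 from 2000 to under 4000 bases and 0.00 from 4000 to under 8000 bases. In the 740 genes of 8000 bases or more it was -0.35, with 278 lower and 100 higher. Of the 88 shortest genes, 43 had passed the filter only through replicate 1; of the 740 longest, 5 had. Medians within the NS pair and within the IUGR pair were -1.93 and -2.53 in the shortest and -0.29 and -0.42 in the longest bin.

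Among long, intron-rich genes more were lower than higher in replicate 2. In protein-coding genes, the median fell from 0.13 where introns sum to between 3000 and 10000 bases to -0.31 between 100000 and 300000 bases and -0.47 at 300000 bases or more, where 177 of 419 genes were lower and 47 higher. Genes with 40 or more introns had a median of -0.39 (273 genes), and those with no intron 0.14 (390 genes). Lrp1b, a receptor gene of the LDL receptor family, was at 306 and 278 CPM in replicate 1 and 60.0 and 54.9 CPM in replicate 2. Dmd, which encodes dystrophin, was at 228 and 241 CPM against 69.4 and 72.3 CPM. Rbfox1, a neuronal splicing factor gene with 1059328 intron bases, went the other way, from 222 and 190 CPM to 415 and 560 CPM. Of 25 long synaptic and adhesion genes fixed as a list, 10 were lower and 2 higher, with a median of -0.38. Ank2 and Dlg2, among the most abundant, did not pass the test. With an offset for exonic GC, added after the data were seen, 9 of the list were lower and 5 higher. The median was then -0.12.

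Host genes of circular RNAs that are abundant in brain were mostly lower. Of 16 listed hosts, 10 were lower and 2 higher (20.8% and 21.1% of all tested genes), with a median of -1.07. Slc8a1, the sodium-calcium exchanger gene at chr17:81373105-81738377, was at 1018 and 966 CPM in replicate 1 and 310 and 255 CPM in replicate 2 (-1.83 ± 0.20, adjusted p = 1.79e-04, edgeR). Tulp4 was at 544 and 548 CPM against 192 and 152 CPM, and Elf2, a transcription factor gene, at 156 and 134 CPM against 28.5 and 30.8 CPM. Rmst, a long non-coding RNA of neural progenitors on this list and on that of nuclear RNAs, was at 57.1 and 51.5 CPM against 1.158 and 1.645 CPM. Klhl2, also among the hosts, was higher, at 357 and 480 CPM against 241 and 207 CPM. The counts do not separate circular from linear transcripts of a gene. The 16 hosts have a median exonic GC of 44.7%, where the tested genes have 50.4%, and with an offset for GC, added after the data were seen, 9 were lower and the median was -0.64.

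Nuclear long non-coding RNAs went both ways, more often lower than higher. Of 17 tested, 8 were lower (47.1%) and 4 higher (23.5%) in replicate 2, with a median of -0.80. Over all tested genes 20.8% were lower and 21.1% higher, and the list was not tested against these shares. Malat1, an abundant RNA of nuclear speckles whose end is processed to a triple helix in place of a poly(A) tail, was at 9146 and 7105 CPM in replicate 1 and 981 and 1214 CPM in replicate 2 (-2.90 ± 0.26, adjusted p = 5.82e-05, edgeR). Kcnq1ot1, an imprinted antisense RNA, was at 134 and 106 CPM against 16.2 and 22.6 CPM, and Neat1, the scaffold of paraspeckles, at 113 and 53.0 CPM against 70.1 and 28.8 CPM, so that Neat1 overlapped between the numbers (-0.80 ± 0.19, adjusted p = 0.00769, edgeR). Meg3, an imprinted RNA with a tail, went up from 479 and 489 CPM to 3424 and 1394 CPM. Miat (119.3 and 117.7 CPM to 842 and 430 CPM), Snhg11 (254 and 295 CPM to 1545 and 894 CPM) and Firre also were higher. Each of these 3 and Meg3 had more in NS replicate 2 than in IUGR replicate 2. Of 13 long RNAs that host snoRNAs in their introns, 6 were lower and 0 higher; Gas5, the most abundant, was at 295 and 292 CPM against 85.0 and 94.6 CPM. The counting strand is not stated, so reads of Kcnq1ot1 and other antisense RNAs cannot be told from those of the genes they overlap.

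Messages that keep introns in the nucleus were more often higher than lower. Of 26 listed, which code mostly for splicing factors and kinases of splicing factors, 12 were higher and 2 lower in replicate 2, with a median of 0.46. Srsf11, a splicing factor gene, was at 130 and 137 CPM in replicate 2 against 54.6 and 49.6 CPM, and Srsf2 at 131 and 133 CPM against 67.2 and 63.8 CPM. Clk1, a kinase of splicing factors, was lower (-0.67 ± 0.19, adjusted p = 0.0191, edgeR). With a minimum log2 change of 1, 3 of the 12 remained. The median exonic GC of the list is 43.6%, and with the offset for GC 18 were higher and 1 lower.

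**Figure D4:**
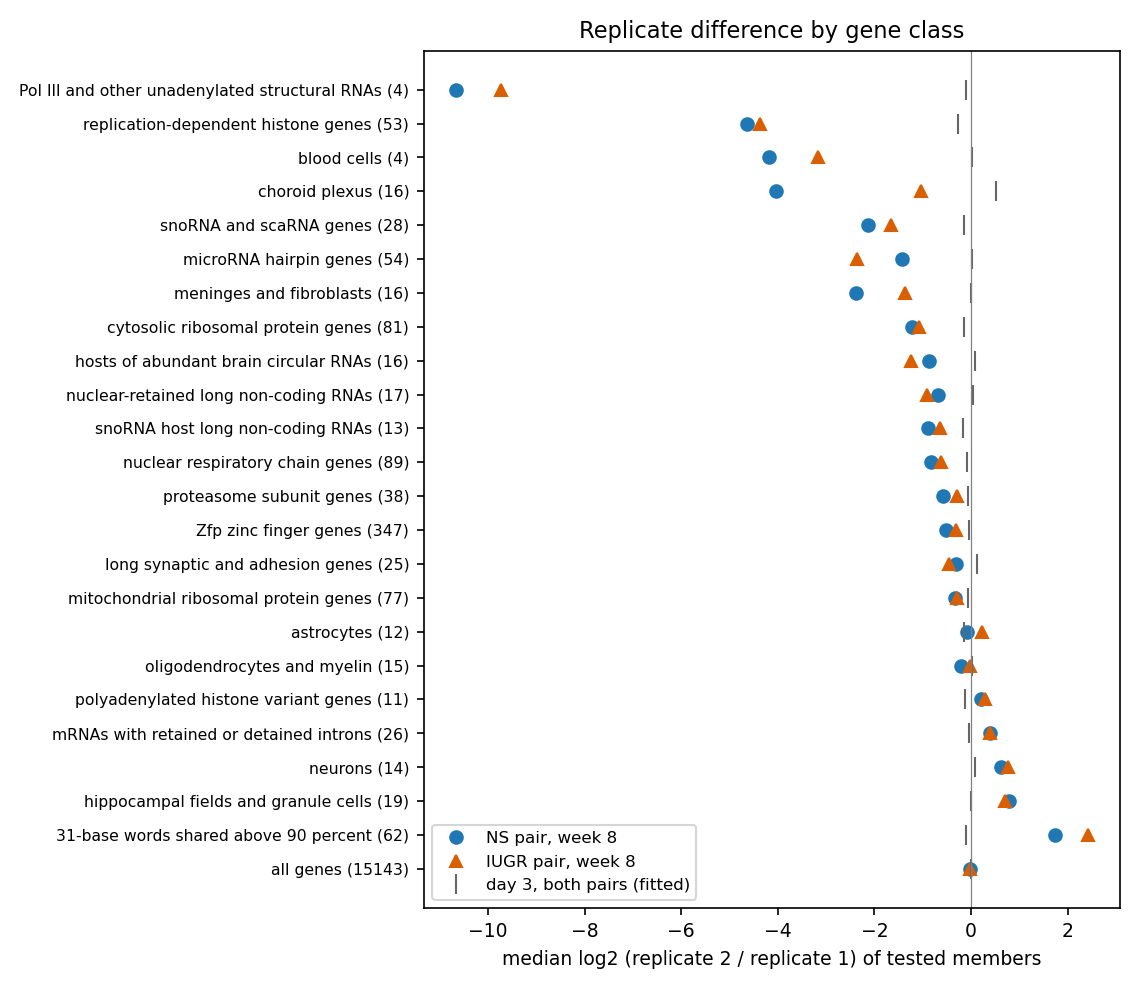
Median log2 ratio of replicate 2 to replicate 1 over the tested members of each class, within the NS pair (blue circles) and the IUGR pair (orange triangles) at week 8 and fitted at day 3 (grey bars); the number of week 8 members tested is in parentheses. Except for astrocyte markers, both pairs lie on the same side of 0 in each class above the row of all genes, the choroid plexus pairs are the farthest apart of the marker lists shown, and the day 3 median farthest from 0 is that of choroid plexus (0.52).

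Base composition also ordered the protein-coding genes. The median log2 change rose with exonic GC in each of 6 bins, from -0.63 under 40% to -0.44, -0.21, 0.14 and 0.52, and to 0.83 at 60% or more. In the lowest bin 298 of 650 genes were lower and 26 higher, and in the highest 52 of 802 were lower and 445 higher. The rank correlation of the change with exonic GC across 14261 coding genes was 0.52 within the NS pair and 0.34 within the IUGR pair, and 0.05 and 0.24 in the NS and IUGR pairs of postnatal day 3. Genes share libraries and are not independent replicates, so these are descriptions. With transcript length the correlation was 0.06 and 0.00, and with intron bases -0.13 and -0.13, at week 8. At postnatal day 3 they were 0.21 and 0.03 with length and 0.12 and 0.00 with intron bases. Within ranges of GC, genes under 1000 bases had the lowest median in each of 4 ranges, while the long end did not stand out in each. Among genes with 50 to under 55% GC the median was -0.72 under 1000 bases, 0.26 from 2000 to under 4000 bases and 0.03 at 8000 bases or more, where the NS pair had 0.25 and the IUGR pair -0.18. At 55% or more the median at 8000 bases or more was 0.65, between the 0.40 of 1000 to under 2000 bases and the 0.72 of 2000 to under 4000 bases. At 45 to under 50% GC it was -0.61 in genes with 300000 intron bases or more and -0.15 in those with 10000 to under 30000, while at 55% or more it was 0.58 and 0.63. In that last range 29 genes have 300000 intron bases or more.

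**Figure D5:**
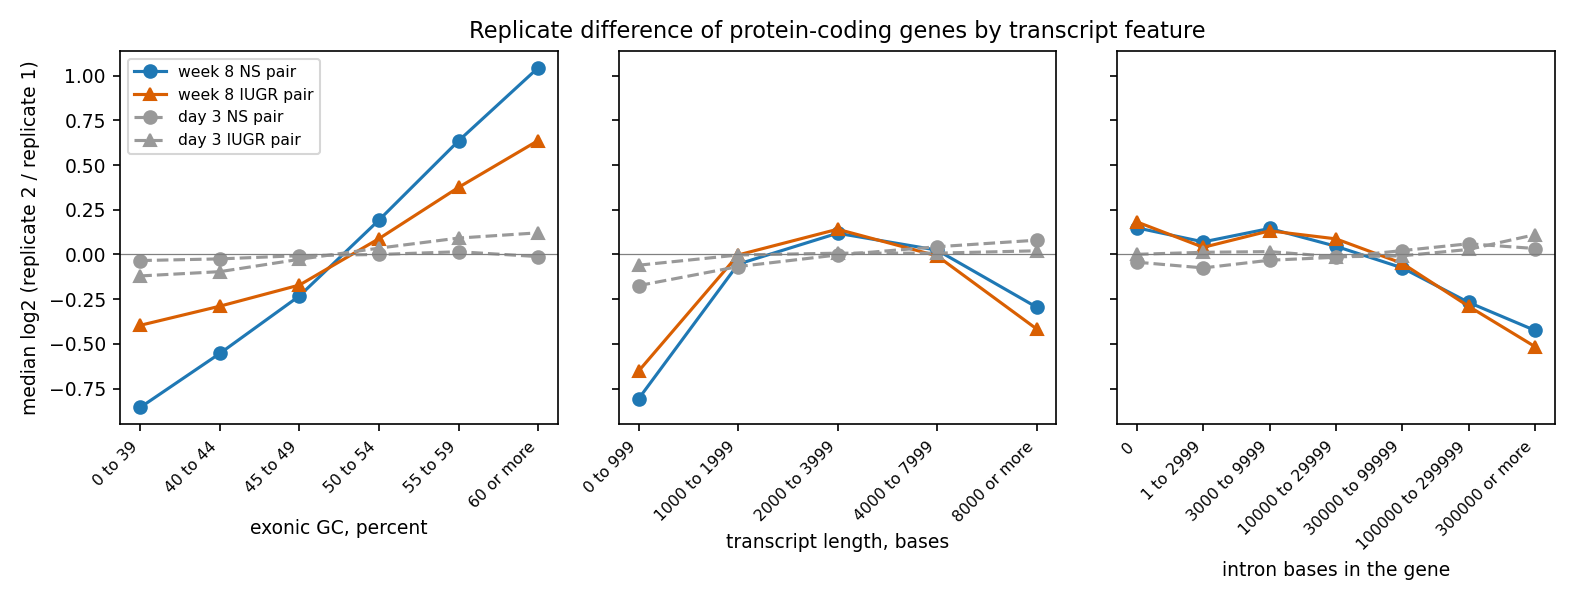
Median log2 ratio of replicate 2 to replicate 1 over protein-coding genes in bins of exonic GC, transcript length and intron bases (x axes), within each pair of libraries at week 8 (solid lines) and postnatal day 3 (dashed grey lines). At week 8 the medians climb with GC, are lowest in transcripts under 1000 bases and fall where introns exceed 100000 bases. The day 3 lines stay nearer to 0 in each bin of GC, but not in each bin of length and intron bases.

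The annotated ends of coding genes were compared last. The median change was 0.00 in 11091 genes with a polyadenylation signal in the last 50 bases and -0.04 in 3170 without one. Genes whose longest run of A has at most 5 bases had a median of 0.17, and the bins with longer runs lay between -0.14 and -0.06 without an order. For the 2 lists that follow, the shares over all tested genes were 20.8% lower and 21.1% higher. The Zfp zinc finger genes code for DNA-binding proteins and have a median GC of 45.6%. Of 347, 120 were lower (34.6%) and 42 higher (12.1%), with a median of -0.43. With the offset for GC their median was -0.18. Clustered protocadherin genes, which share exons, were lower in 6 (11.1%) and higher in 3 (5.56%) of 54, both under the shares over all tested genes.

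Many of the genes with the largest increase have a near-identical copy elsewhere. To measure this, each transcript was cut into words of 31 bases, and the share of words found in a transcript of another gene was taken; this measure was added after the values were seen. In the 62 tested genes with over 90% shared words, 37 were higher and 12 lower in replicate 2, with a median of 2.17, although 18 of them had passed the filter only through replicate 2. In the 8547 without a shared word 1900 were higher and 1670 lower (median 0.02). Over all 541 genes of the first kind, 7 had at least 5 CPM in both replicate 2 libraries and under 0.5 CPM in both replicate 1 libraries (1.29%). No gene with at most 50% shared words did so. The 541 genes together held 0.465% and 0.426% of the counts in replicate 1 and 0.409% and 0.511% in replicate 2, so their sum did not separate the numbers.

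Srp54b, a copy of the gene for the 54-kDa protein of the signal recognition particle, was at 279 and 376 CPM in replicate 2 of NS and IUGR and 1.23 and 0.406 CPM in replicate 1 (8.64 ± 0.40, adjusted p = 1.57e-06, edgeR). Its neighbour Srp54a was at 164 and 237 CPM against 13.97 and 16.36 CPM. The 3 Srp54 copies summed to 443 and 613 CPM in replicate 2, 15.2 and 16.8 CPM in replicate 1 and 16.8 to 22.1 CPM at postnatal day 3, so the sum over copies separated the numbers too; it was not tested. Gm12070, whose words all recur in other genes and which was grouped here with Gapdh, was at 302 and 436 CPM against 4.45 and 3.99 CPM. Gapdh itself, the glycolytic enzyme, was at 1995 and 1988 CPM against 395 and 409 CPM. For the Tuba1 tubulin genes the sum was 2071 and 2642 CPM in replicate 2 and 1061 and 1179 CPM in replicate 1. Other genes that the rule for the largest increases named are Gm10409, Gm3383, Gm3500, Gm3893, Gm6710 and Vmn2r46, each with over 97% shared words, and Adam1b with 33.4%. Fam205a2, also named, was at 34.6 and 24.8 CPM against 0.153 and 0.135 CPM, and its annotation on an unplaced scaffold gave no sequence for this measure.

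A strong increase also fell outside the copies. Prrt1, a partner of AMPA receptors with 62.5% GC and no shared word, was at 174 and 164 CPM against 5.60 and 6.70 CPM. This gene was picked after its values were seen.

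Cell type markers differed between the numbers in several lists. Of 14 neuron markers, 8 were higher (57.1%, against 21.1% of all tested genes) and 0 lower, with a median of 0.66. The other 6 were not called. The 14 held 0.552% and 0.603% of the counts in replicate 1 and 1.40% and 1.35% in replicate 2. Such a sum is weighted to abundant members. Among the 4 most abundant, Camk2a and Slc17a7 rose most. Snap25 changed by 0.62, and Syt1 by 0.24, which did not pass the test. Camk2a, a kinase of excitatory synapses, was at 682 and 762 CPM in replicate 1 of NS and IUGR and 5325 and 4854 CPM in replicate 2 (2.80 ± 0.23, adjusted p = 4.65e-05, edgeR). Slc17a7, the vesicular glutamate transporter of the hippocampus and cortex, was at 338 and 425 CPM against 1702 and 1415 CPM, while Slc17a6, its subcortical relative, was at 39.6 and 34.6 CPM against 10.7 and 8.16 CPM. Of 19 markers of hippocampal fields and granule cells, 11 were higher and 2 lower (median 0.73); Neurod2 went from 47.7 and 43.9 CPM to 235 and 256 CPM, and Mpped1, Neurod6 and Calb1 did not pass the test. Fewer cells of a type and less RNA per cell cannot be told apart in bulk tissue. The 14 neuron markers have a median GC of 51.1%, and with the offset for GC 13 were higher.

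Of 16 choroid plexus markers tested, genes of the epithelium that secretes cerebrospinal fluid, 14 were lower in replicate 2 and 0 higher. Ttr, the thyroid hormone carrier of that epithelium, was at 6464 CPM in NS replicate 1 and at 47.4, 44.2 and 22.2 CPM in NS replicate 2, IUGR replicate 1 and IUGR replicate 2. One library therefore holds most of that difference: the median was -4.03 within the NS pair and -1.05 within the IUGR pair. Without NS replicate 1, 3 markers were called lower and 1 higher. Without NS replicate 2 no marker was called, without IUGR replicate 2 there were 2, without IUGR replicate 1 all 18 then tested, and DESeq2 called 7. All 16 markers of meninges and fibroblasts were below 0 in the fit, 14 of them called (median -1.91; -2.38 and -1.36 within the pairs); Ptgds, a prostaglandin synthase of the meninges, was at 1852 and 901 CPM against 410 and 565 CPM. The 4 blood cell markers that passed the filter, 3 of them only through replicate 1, were lower; Alas2, of red cell heme synthesis, was at 72.5 and 11.7 CPM against 0.895 and 0.891 CPM.

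Glial markers went both ways. For the lists that follow, the shares over all tested genes were 21.1% higher and 20.8% lower, and no list was tested against these. Of 12 astrocyte markers, 3 were higher and 2 lower (median 0.20), of 15 oligodendrocyte and myelin markers 4 and 5 (median -0.06), and of 13 microglia markers 1 and 3 (median -0.28). Slc1a2, the glutamate transporter of astrocytes, was at 2460 and 2392 CPM in replicate 1 and 3430 and 3130 CPM in replicate 2 and did not pass the test. Mbp was higher and Cnp lower, both genes of myelin. Csf1r, a receptor of microglia, was higher by 1.05 ± 0.19 and Ctss, a protease of the same cells, lower by 0.59 ± 0.20. Of 16 endothelial and mural markers, 3 were lower and 2 higher. Immediate early genes, a class switched on by neuronal activity, were higher in 7 and lower in 2 of 18. Their median was 0.69 within the NS pair and 0.04 within the IUGR pair. With the offset for GC 5 of them were higher and 4 lower, with a median of 0.07. Thalamic and habenular markers counted 1 higher and 3 lower of 11, striatal markers 2 and 2 of 10, and hypothalamic markers 1 and 2 of 6. The part of cell composition in the splits by GC, length and intron content was not tested.

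The week 8 differences were also set against those of postnatal day 3. The replicate difference at week 8 differed from that at postnatal day 3 in 3578 of 15999 genes (22.4%; edgeR's quasi-likelihood test of the interaction), lower at week 8 in 1688 and higher in 1890. Rpph1, Hist1h4h, Rps29, Malat1, Slc8a1, Camk2a and Gapdh were among them, with adjusted p from 2.38e-05 to 0.00361. Neat1 was not (adjusted p = 0.145), nor were the choroid plexus genes Ttr (0.415), Enpp2 (0.231) and Clic6 (0.182). Ttr ranged from 63.1 to 6047 CPM among the 4 libraries of postnatal day 3.

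In the comparison of IUGR with NS at week 8, where the replicate numbers lie inside each group, the common biological coefficient of variation was 0.499, against 0.164 with the replicate number in the model. No gene was called in either fit at an adjusted p under 0.05 (0% of 15143, edgeR). At an unadjusted p under 0.05 there were 29 genes without the number in the model, and DESeq2 called 1 gene. Eef1a1, the elongation factor, was at 36960 CPM in IUGR replicate 1 and at 3662, 2182 and 2721 CPM in NS replicate 1, NS replicate 2 and IUGR replicate 2, so its replicate difference of -2.27 ± 0.61 rests on 1 library.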

How the data were processed

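The authors deposited raw read counts per gene symbol for the 4 libraries of each age, with a length per gene, and all tests used these counts. Per the submitters' processing notes, cutadapt 1.16, HISAT2 2.1.0, SAMtools 1.9, featureCounts 1.6.1, DESeq2 1.26.0 and the build mm10 were used. Not given in the sources used here are the step order, the annotation, the strand setting and the handling of multiply mapped reads. This leaves counts of gene copies and antisense genes uncertain. The week 8 counts were fitted with edgeR 4.0.16 in R 4.3.3 (quasi-likelihood test, treatment plus replicate number, TMM scaling, filterByExpr), which leaves 1 residual degree of freedom per gene, supplemented across genes. The SE is the log2 change over the square root of F. On simulated counts for this comparison, run on 15152 and 15110 genes, 69.5% of 200 changes of 1 log2 unit and 98.5% of changes of 2 were recovered. The simulation gave every gene the same biological coefficient of variation, a little below the fitted 0.164. It changed only those 200 genes, equally in both directions. Recovery in the data, where many more genes were called, may differ. A count of 0 allows 3 counts, or 0.158 to 0.23 CPM in a week 8 library; floors and intervals cover counting error only. A fitted fold change of a gene with no counts in a group depends on the prior count. Symbols of 24049 of 24421 genes matched GENCODE M21 (GRCm38), from which biotype, introns and sequence features were taken. Named genes were the 10 higher and 10 lower with the largest change among those called, at a mean of at least 1 CPM and without overlap, the 4 most abundant members of each class or list, and Rpph1, Malat1, Neat1 and Eef1a1; others were picked after their values were seen. The classes, lists and members were chosen with earlier results of these data known. Alternatives were other scalings, filters, thresholds, tests and designs and leaving out each library; a GC offset and the removal of genes with over 10% shared words were added after seeing the data. The authors' normalized tables were not used.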

Additional observations from a re-analysis of the deposited data

Results flagged for a closer look

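The replicate difference at week 8 departed from that at postnatal day 3 in 3578 genes by a test of the difference between ages. In 26 tested genes the NS pair and the IUGR pair at week 8 differed in opposite directions, by at least 1 on the log2 scale in each; 2 of these had a mean of at least 10 CPM, and the difference between the pairs was not tested. Rn45s, the precursor of ribosomal RNA, changed by -2.61 within NS (3337 to 549 CPM) and by 1.80 within IUGR (2747 to 9783 CPM). Kl, a klotho gene of the choroid plexus list, changed by -1.84 within NS (97.9 to 27.4 CPM) and by 1.64 within IUGR (11.4 to 36.3 CPM).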

How the results depend on the processing

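The direction and size of the week 8 split held under most alternatives: genes lower in replicate 2 numbered 2198 to 4121 and genes higher 2310 to 3731 over every alternative except a minimum log2 change of 1, with which 1960 and 1830 were called. Leaving out each library in turn gave 2198 to 3074 lower and 2310 to 3546 higher genes. Upper-quartile scaling moved the median of all genes from -0.03 to -0.13 and the share of calls that were higher from 50.4% to 42.5%. At postnatal day 3, 4 genes were called, 0 with limma voom (547 at an unadjusted p under 0.05), and 5 to 10 when a library was left out (10 without NS replicate 2). With genes of at most 10% shared words alone, 6 of 7 tested histone genes and 5 of 5 ribosomal protein genes were lower, since most members were removed. Rn45s turned to 0.88 without NS replicate 1 and 1.72 without NS replicate 2, and Kl to 1.44 without NS replicate 1, while they were -2.47 (Rn45s) without IUGR replicate 2 and -1.59 (Kl) without IUGR replicate 1; the cause was not tested. For IUGR against NS at week 8, the replicate block called 0 genes, as did the fit without it (603 and 29 at an unadjusted p under 0.05), and DESeq2 called 1. With 2 pairs the numbers were not taken to pair animals. Depth limits genes near the 3-count floor, and 1 residual degree of freedom and 2 libraries a number limit all tests.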

Other observations

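Avp, the vasopressin gene of the hypothalamus, was at 17.0 and 6.90 CPM in the week 8 NS and IUGR libraries numbered 1, and at 0.369 and 0.0686 CPM in those numbered 2. The last value lies under the 3-count floor of its library (0.206 CPM). The other hypothalamic markers did not follow as a list. Of 6 tested, 2 were lower and 1 higher, and 2 had passed the filter only through replicate 1. Hap1 was higher by 0.75, and Gpr101 and Baiap3 did not pass the test. The neuronal elongation factor Eef1a2 was at 302 and 352 CPM in replicate 1 and 1018 and 824 CPM in replicate 2, higher by 1.47 ± 0.22. The Y-linked genes Ddx3y, Uty and Kdm5d, present in all 4 week 8 libraries, were lower in replicate 2 by 1.04 ± 0.22, 1.34 ± 0.24 and 0.88 ± 0.20 on the log2 scale (adjusted p from 0.00193 to 0.00625, edgeR), and Eif2s3y did not pass the test. With the offset for GC, added after the data were seen, they were lower by 0.41, 0.71 and 0.48 in that order and still called; the list has a median exonic GC of 37.8%.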
